A study of Mus musculus with 10 samples.

Results

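The acute phase proteins examined here are 10 genes listed by name, Saa1, Saa2, Saa3, Orm1, Orm2, Crp, Apcs, Serpina3n, Itih4 and Lbp, out of 38922 genes in each table of liver RNA. Their mouse Ensembl identifiers were matched to symbols in GENCODE mouse release M21, and all 10 were found and had enough counts to be tested. No threshold on a measured value entered the choice, although the genes were chosen with earlier results of these data known.

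Acute phase proteins are plasma proteins that the liver secretes in altered amounts within hours of infection or tissue damage. Cytokines of the interleukin 6 and interleukin 1 families reach hepatocytes and act there through STAT3, NF-κB and C/EBP transcription factors. The 10 genes cover the serum amyloid A apolipoproteins (Saa1, Saa2, Saa3), the orosomucoids or α1-acid glycoproteins (Orm1, Orm2), the pentraxins C-reactive protein (Crp) and serum amyloid P component (Apcs), an antichymotrypsin-like serine protease inhibitor (Serpina3n), a heavy chain of the inter-α-trypsin inhibitor family (Itih4) and the lipopolysaccharide-binding protein (Lbp). In mice serum amyloid P component is known as the strongly induced pentraxin, and C-reactive protein as a weak reactant.

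The study used wild-type male C57BL/6N mice, an inbred strain, aged 6 weeks and labelled as weighing 22 to 25 g. In 5 mice CD95-Ab, an antibody that activates the death receptor Fas and causes acute injury of the liver, was given intraperitoneally at 0.5 µg per g of body weight. The other 5 mice received an equal volume of saline by the same route, and livers were taken at 6 h in both groups. Each mouse gave 1 RNA-seq library of whole liver, so that n is the number of mice, and no batch is named in the labels. Only 1 dose and 1 time were sampled. RNA of all liver cells was mixed, so a change in the number of cells of a type and a change in RNA per cell cannot be told apart.

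Total counts per mouse ranged from 25965699 to 62097636 after saline and from 27480796 to 44962196 after CD95-Ab. Levels are given as CPM, that is counts per 1000000 of a mouse's total after TMM adjustment, and 3 counts correspond to 0.0483 to 0.116 CPM before that adjustment. All 15 hepatocyte markers were detected and tested in liver, 9 of them lower and 1 (Fgb) higher after CD95-Ab, and albumin took 8.70% ± 0.699 (SD, n = 5) of the counts after saline and 4.03% ± 1.16 (SD, n = 5) after CD95-Ab. Markers of other cells moved with the treatment as well. All 8 tested of 13 neutrophil markers rose, from a summed 4.54 to 11.6 CPM in saline mice to 114 to 479.7 CPM, although Mpo was at or near 0 in most mice. All 7 erythroid markers rose, from 135 to 325 CPM in sum to 1064 to 34013 CPM. Of 10 Kupffer cell and macrophage markers 4 rose and 1 (Cd163) fell, with sums of 165 to 499 CPM after saline and 513 to 898 CPM after CD95-Ab. Of 12 endothelial and stellate cell markers 9 rose (89.7 to 169 against 266 to 526 CPM in sum), and of 5 cholangiocyte markers 4 rose (18.3 to 33.8 against 48.3 to 186 CPM in sum). Of 6 adipocyte markers 2 were tested and both rose (2.28 to 13.6 against 24.2 to 89.0 CPM in sum), while the adipocyte marker Adipoq was at 0 in every CD95-Ab mouse. RNAs without a poly(A) tail summed to 0.376 to 0.924 CPM after saline and 358 to 1307 CPM after CD95-Ab, with 4 of 9 tested and all 4 higher. The part of these shifts in the values of the acute phase genes was not tested.

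Promoters of the 5 acute phase genes with the largest increases are shown first, because Saa1 and Saa2 have nearly the same upstream sequence and yet differed in response. RefSeq promoter sequences (GRCm38.p6) were matched by symbol for 8 of the 10 genes, all but Orm1 and Lbp. The stretches run 5′ to 3′ on the strand of the gene, from 250 to 51 bases before the start that RefSeq gives. That start is the GENCODE gene start, given below, for Saa1 and Orm2, but lies 43 bases downstream of it for Saa2 (at 46751833), 24 bases downstream for Saa3 (at 46715676) and 13 bases upstream for Apcs (at 172895054). Capitals mark matches to TTNNGCAA, letters typical of C/EBP sites, or TTCNNNGAA, letters typical of STAT sites, searched on both strands. The regions are chr7:46743031-46743230 on the minus strand for Saa1, chr7:46751583-46751782 on the plus strand for Saa2, chr7:46715727-46715926 on the minus strand for Saa3, chr4:63362199-63362398 on the plus strand for Orm2 and chr1:172895105-172895304 on the minus strand for Apcs.
Saa1: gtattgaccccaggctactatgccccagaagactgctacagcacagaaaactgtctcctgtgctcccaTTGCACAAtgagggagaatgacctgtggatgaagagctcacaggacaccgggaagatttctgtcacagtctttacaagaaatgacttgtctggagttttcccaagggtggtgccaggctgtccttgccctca
Saa2: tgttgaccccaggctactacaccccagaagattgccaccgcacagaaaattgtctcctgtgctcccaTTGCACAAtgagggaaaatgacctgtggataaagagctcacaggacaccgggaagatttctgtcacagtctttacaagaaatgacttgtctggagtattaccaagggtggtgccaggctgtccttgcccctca
Saa3: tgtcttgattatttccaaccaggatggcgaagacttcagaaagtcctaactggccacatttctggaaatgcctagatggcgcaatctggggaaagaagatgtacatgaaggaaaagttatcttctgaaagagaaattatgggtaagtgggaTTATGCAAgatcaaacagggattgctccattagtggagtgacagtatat
Orm2: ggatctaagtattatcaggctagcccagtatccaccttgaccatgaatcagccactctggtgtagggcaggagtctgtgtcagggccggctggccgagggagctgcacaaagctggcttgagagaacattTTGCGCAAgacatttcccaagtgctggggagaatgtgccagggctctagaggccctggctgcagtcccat
Apcs: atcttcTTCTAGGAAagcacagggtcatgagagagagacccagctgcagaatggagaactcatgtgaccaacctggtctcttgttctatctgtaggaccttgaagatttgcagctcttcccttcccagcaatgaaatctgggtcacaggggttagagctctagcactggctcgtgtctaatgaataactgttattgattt

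Over the whole 250 bases before the RefSeq start, Saa1 and Saa2 were 94.8% identical, against 52.2% for Saa1 and Saa3. The C/EBP letters occurred in 4 of the 8 windows, those of Saa1, Saa2, Saa3 and Orm2, and in 9.57% of the 32841 promoter windows of that length. The Saa1 and Saa2 matches were the same 8 letters, TTGCACAA, with their first base at -182 from the RefSeq start in Saa1 and at -183 in Saa2. The STAT letters occurred in Apcs and in Itih4, that is in 2 of 8 windows, and in 7.02% of all windows. Matches to the κB motif of NF-κB were in 0 of the 8 windows and in 7.25% of all windows. The matches of these motifs in the shown stretches did not overlap each other, and a match describes letters and not a bound site.

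RNA of 9 of the 10 acute phase genes rose after CD95-Ab (FDR of 0.05 or less, edgeR quasi-likelihood test with Benjamini-Hochberg adjustment over 13719 genes), and none fell, also none at an unadjusted p under 0.05 or with DESeq2 or limma-voom. Itih4 did not pass the threshold. The median log2 fold change of the 10 genes was 2.01, beside 0.01 over all tested genes. The change was broad in this tissue, since 47.3% of all tested genes passed the threshold, 25.4% as higher and 22% as lower. An increase of at least 2 on the log2 scale was found for 5 of the 10 genes (Saa1, Saa2, Saa3, Orm2 and Apcs) and for 6.59% of all tested genes. Every CD95-Ab mouse exceeded every saline mouse for the same 9 genes that passed the test, and for 18.6% of tested genes. Together the 10 genes took 0.492% ± 0.265 (SD, n = 5) of all counts after saline and 2.06% ± 0.524 (SD, n = 5) after CD95-Ab, a description without a test. The plot of CPM by mouse shows both groups for each gene.

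**Figure D1:**
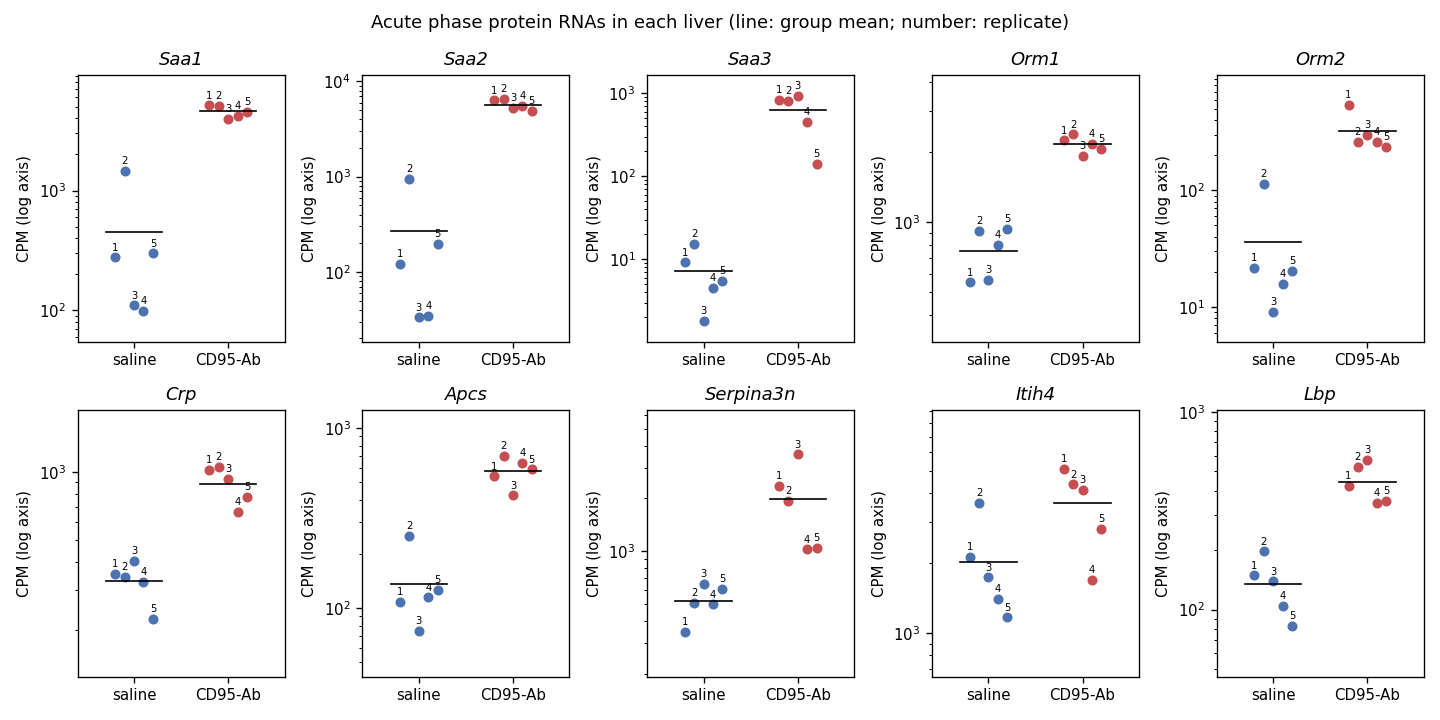
Each panel plots 1 acute phase gene, with CPM on a log axis for the 5 saline mice (blue) and the 5 CD95-Ab mice (red), numbered by replicate, and a black line at the group mean. The groups do not overlap in 9 panels, saline mouse 2 is the highest saline mouse in 7 panels, and the groups overlap for Itih4.

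The serum amyloid A genes had the largest increases among the 10. Saa1 (ENSMUSG00000074115) and Saa2 (ENSMUSG00000057465) encode acute phase apolipoproteins of high-density lipoprotein, and Saa3 (ENSMUSG00000040026) encodes a family member that is also made in macrophages and fat. On GRCm38 the 3 genes lie on chromosome 7, Saa3 at 46711998 to 46715700 (minus strand), Saa1 at 46740497 to 46742980 (minus strand) and Saa2 at 46751790 to 46754313 (plus strand), with Saa4 between Saa3 and Saa1. Saa1 was at 276, 1456, 110.0, 98.3 and 299.8 CPM in saline mice 1 to 5 and at 5140.3, 5079, 3974, 4187 and 4522 CPM in CD95-Ab mice 1 to 5. Its log2 fold change was 3.35 ± 0.68 (SE, n = 5 mice per group, edgeR FDR = 0.00176). Saline mouse 2 stood well above the other saline mice, while the CD95-Ab mice lay close together.

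Saa2 was at 121, 951, 33.2, 34.4 and 197 CPM in the saline mice and at 6336, 6513, 5266, 5509 and 4930.4 CPM in the CD95-Ab mice. Its log2 fold change was 4.42 ± 0.87 (SE, edgeR FDR = 0.00147), and saline mouse 2 was again the highest of its group. The spread lay in the saline mice, with a highest value 28.6 times the lowest for Saa2 and 14.8 times for Saa1. Among CD95-Ab mice these ratios were 1.32 and 1.29. Without saline mouse 2 the log2 fold changes were 4.54 for Saa1 and 5.88 for Saa2.

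Saa3 showed the largest change of the 10 genes from the lowest starting level. It was at 9.22, 15.5, 1.83, 4.54 and 5.47 CPM after saline and at 835, 811, 931, 456 and 141 CPM after CD95-Ab, a log2 fold change of 6.44 ± 0.69 (SE, edgeR FDR = 1.92e-05). The groups did not overlap, and CD95-Ab mouse 5 was the lowest of its group. Kupffer cell and macrophage markers, a cell type that can express Saa3, rose for 4 of 10 genes, as given above. Of the others Cd163 fell and 5 did not pass the test, among them Clec4f (log2 fold change 0.10) and Vsig4 (-0.02). The part of these cells in the change of Saa3 was not tested.

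The fourth gene of the cluster, Saa4, which encodes a constitutive serum amyloid A of lipoprotein particles, is 7894 bases from Saa1 and 12298 bases from Saa3. It was at 257 to 528 CPM after saline and 412 to 664 CPM after CD95-Ab. The groups overlapped, with a log2 fold change of 0.45 ± 0.22 (SE, edgeR FDR = 0.104). Its promoter window held the C/EBP letters in 2 places, so these letters were also present beside a gene that did not pass the test.

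Both orosomucoid genes rose, Orm2 by more than Orm1. Orosomucoids are acidic glycoproteins that carry drugs and lipids in plasma. Orm1 (ENSMUSG00000039196, chromosome 4, 63344560 to 63348163, plus strand) was at 552, 917, 565, 799.5 and 936 CPM after saline and at 2240.2, 2382, 1923, 2172 and 2066 CPM after CD95-Ab. Its log2 fold change was 1.52 ± 0.19 (SE, edgeR FDR = 6.19e-05), with little spread in either group and no overlap.

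Orm2 (ENSMUSG00000061540, chromosome 4, 63362449 to 63365878, plus strand) started lower, at 21.6, 114, 9.02, 15.8 and 20.4 CPM, and reached 547, 262, 301, 259.7 and 236 CPM after CD95-Ab. Its log2 fold change was 3.15 ± 0.64 (SE, edgeR FDR = 0.0017), and 4.26 without saline mouse 2. Saline mouse 2 and CD95-Ab mouse 1 each stood above the rest of their groups. Orm3, the gene between them, was scarce at 0.235 to 4.52 CPM after saline and 3.27 to 7.71 CPM after CD95-Ab, with overlapping groups and a log2 fold change of 1.83 ± 0.65 (SE, edgeR FDR = 0.0364). Transcripts of Orm1 and Orm2 are 91.0% identical, and 6.95% of the 100-base windows of each occur in the other, so RSEM may have had to divide part of their fragments, which makes the values of both less certain than those of unique genes. For Saa1 and Saa2, 87.3% identical, no window of 100 bases was shared.

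The pentraxins Crp and Apcs are neighbours on chromosome 1, with 60930 bases between them. C-reactive protein and serum amyloid P component both bind damaged cells and microbial surfaces. Crp (ENSMUSG00000037942, 172698055 to 172833031, plus strand) was at 353, 344, 404, 325 and 223 CPM after saline and at 1021, 1052, 934, 667 and 776 CPM after CD95-Ab, with a log2 fold change of 1.43 ± 0.19 (SE, edgeR FDR = 9.54e-05). The groups did not overlap, and CD95-Ab mouse 4 was the lowest of the treated mice. Saline mouse 2 was not raised for this gene.

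Apcs (ENSMUSG00000026542, 172893961 to 172895041, minus strand) was at 108, 252.4, 75.0, 115 and 126 CPM after saline and at 540.4, 704, 424, 640.2 and 591 CPM after CD95-Ab. The log2 fold change was 2.10 ± 0.29 (SE, edgeR FDR = 0.000134). Saline mouse 2 was the highest saline mouse, below all CD95-Ab mice.

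Serpina3n and Lbp rose, and Itih4 was higher on average but overlapped between groups. Serpina3n (ENSMUSG00000021091, chromosome 12, 104406729 to 104414329, plus strand), an inhibitor of serine proteases such as cathepsin G and granzyme B, was at 347, 507, 649.8, 497 and 612 CPM after saline and at 2365, 1937, 3572, 1025 and 1047 CPM after CD95-Ab. Its log2 fold change was 1.93 ± 0.34 (SE, edgeR FDR = 0.000739). CD95-Ab mice 4 and 5 were much lower than CD95-Ab mouse 3, yet above every saline mouse.

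Lbp (ENSMUSG00000016024, chromosome 2, 158306493 to 158332852, plus strand) encodes the plasma protein that passes bacterial lipopolysaccharide to CD14. It was at 149, 197, 139, 105 and 82.5 CPM after saline and at 424, 526, 570.3, 346 and 355 CPM after CD95-Ab, a log2 fold change of 1.72 ± 0.24 (SE, edgeR FDR = 0.000131). CD95-Ab mice 4 and 5 were again the lowest treated mice, and the groups did not overlap.

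Itih4 (ENSMUSG00000021922, chromosome 14, 30886476 to 30902353, plus strand) was at 2127, 3628, 1737, 1405 and 1168 CPM after saline and at 5090.2, 4369, 4133, 1689 and 2806 CPM after CD95-Ab. The log2 fold change was 0.85 ± 0.35 (SE, edgeR FDR = 0.0676). CD95-Ab mice 1, 2 and 3 exceeded all saline mice, CD95-Ab mice 4 and 5 did not, and saline mouse 2 was the highest of its group. The call turned on single mice, since the FDR was 0.0126 (log2 fold change 1.16) without saline mouse 2 and 0.0224 (1.02) without CD95-Ab mouse 4. With replicate number as a block the FDR was 0.0179 (0.86), and the numbers were not found to pair the mice.

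The length behind the Itih4 values also differed between mice. FPKM divides counts by gene length, and the length that the deposited count and FPKM of Itih4 imply was 1295 bases in saline mouse 5 and 1325 bases in CD95-Ab mouse 4 but up to 2447 bases in CD95-Ab mouse 1. The longest exceeded the shortest by 88.9%, while this figure was at most 3.92% in the other 9 acute phase genes and had a median of 2.04% over the 1913 genes that reached 1000 counts in each of the 10 mice. Itih4 was among 9 of those genes, or 0.470%, with a figure of that size or larger. Both mice with short implied lengths were also the lowest of their groups for Itih4 CPM, and they had the highest FPKM totals of their groups. RSEM takes this length from the mix of transcripts it assigns, and whether different Itih4 transcripts were present was not tested. Saline mouse 5 and CD95-Ab mouse 4 also had the shortest lengths implied in this way for Apob, C4b and Cfb. Cfb had 71848 counts and 1260 FPKM in CD95-Ab mouse 1, and 42260 counts and 967 FPKM in CD95-Ab mouse 4. Whether a trait of these libraries, such as RNA quality, lies behind the short lengths was not tested. The bars by mouse place CPM, FPKM and implied length of Itih4 next to each other.

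**Figure D2:**
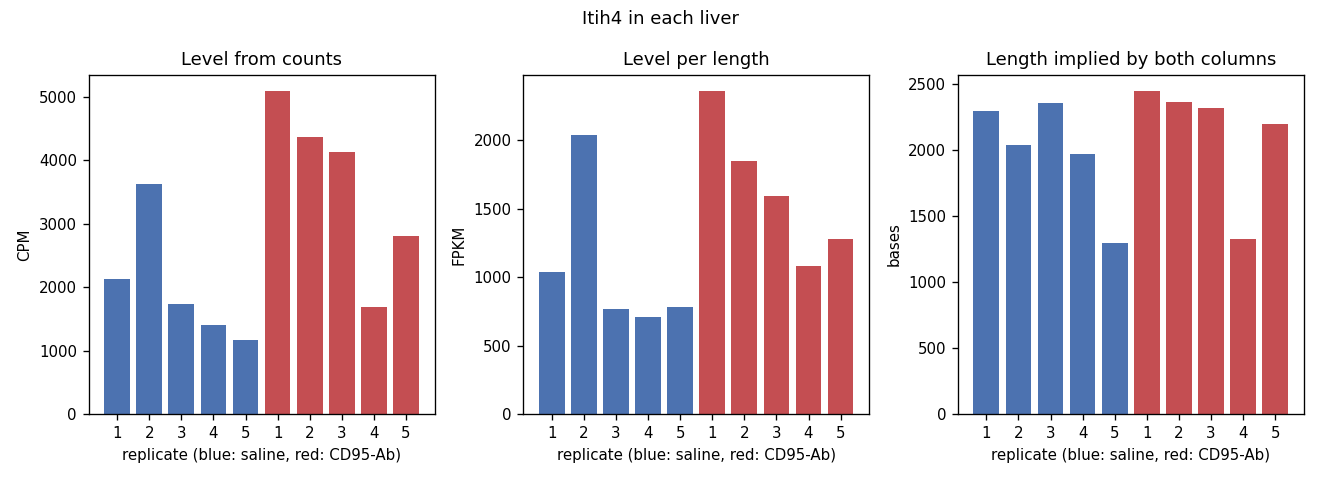
Bars give Itih4 in each of the 5 saline mice (blue) and the 5 CD95-Ab mice (red), as CPM, as FPKM and as the gene length in bases that follows from the 2 deposited columns. The implied length is 1295 bases in saline mouse 5 and 1325 in CD95-Ab mouse 4, and 1973 to 2447 bases in the other 8 mice.

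Relatives of the 10 genes were mixed in response. Of 21 listed relatives 20 were in the files and 15 were tested, of which 8 rose and 0 fell by the edgeR test (0 lower at an unadjusted p under 0.05, and 1, Itih2, with DESeq2), with a median log2 fold change of 0.95. The largest increases were in the serpin A3 cluster, Serpina3f with 4.24 ± 0.38, Serpina3i with 3.29 ± 0.39 and Serpina3g with 2.57 ± 0.34 (SE, n = 5 mice per group). Serpina3k, the most abundant relative at 11462 ± 3159 CPM (SD, n = 5) after saline and 10552 ± 1406 CPM (SD, n = 5) after CD95-Ab, had a log2 fold change of -0.12 ± 0.22 (edgeR FDR = 0.685). In the inter-α-trypsin inhibitor family, Itih3 rose by 0.95 ± 0.20 (SE, edgeR FDR = 0.00226) without overlap, while Itih1 at -0.24, Itih2 at -0.35 and Itih5 at -0.12 did not pass the test. The plot of fold changes by family places the 10 genes among their relatives.

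**Figure D3:**
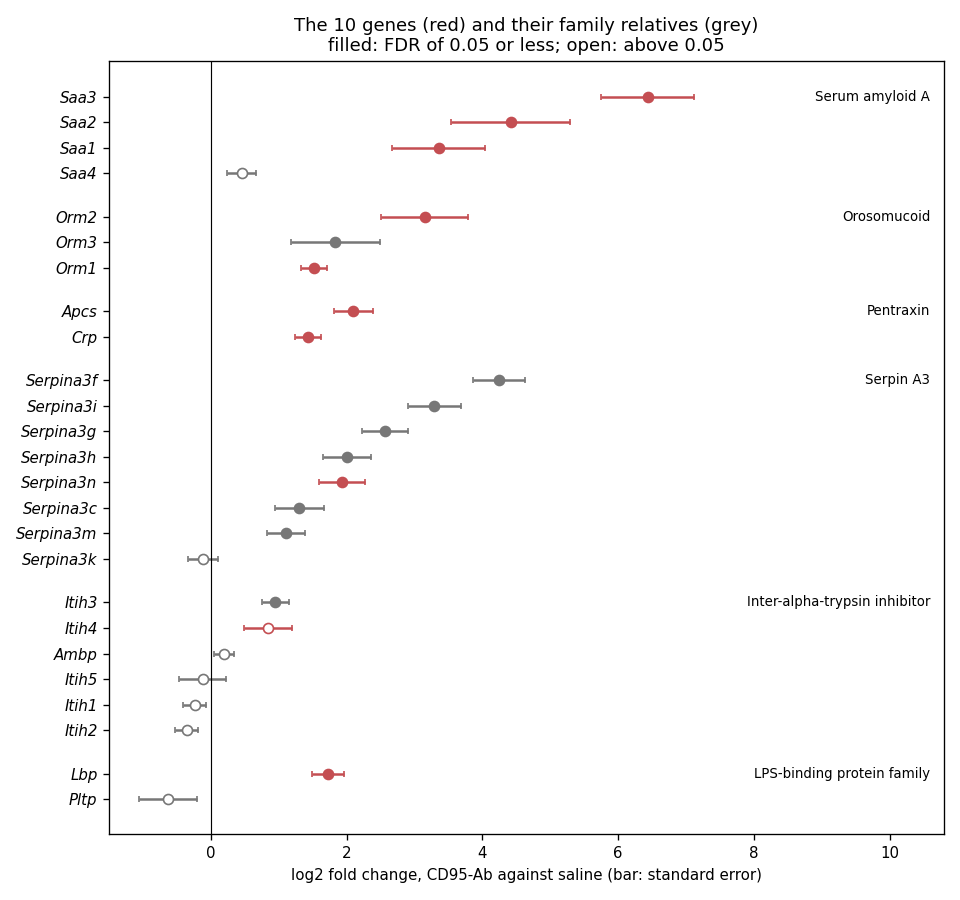
Points give the log2 fold change of CD95-Ab against saline for the 10 acute phase genes (red) and their tested relatives (grey), grouped by family, with bars for the standard error (5 mice per group), and filled points passed an FDR of 0.05. Saa3 lies farthest to the right at 6.44, whereas Saa4 (0.45), Serpina3k (-0.12) and Itih1 (-0.24) are open points near 0.

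Related genes differed in how much they changed. To compare 2 genes within a mouse without any scaling, the ratio of their counts was taken, and the groups were compared with a two-sided exact permutation test on log2 ratios. With 5 mice against 5 the smallest possible p is 0.00794, and p-values were adjusted over the 4 ratios tested. Saa2 counts were 0.439, 0.653, 0.302, 0.350 and 0.657 of Saa1 counts in saline mice 1 to 5 and 1.23, 1.28, 1.33, 1.32 and 1.09 of them in CD95-Ab mice 1 to 5. Thus Saa1 exceeded Saa2 in every saline mouse and Saa2 exceeded Saa1 in every CD95-Ab mouse. The log2 ratio differed by 1.45 (exact permutation p = 0.00794, the smallest possible, adjusted p = 0.0317). The 2 groups of ratios did not overlap, and saline mouse 2, which had the highest Saa1 and Saa2, stayed among the saline mice in this ratio.

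The ratio of Saa3 to Saa1 was 0.0106 to 0.0462 after saline and 0.0312 to 0.234 after CD95-Ab (log2 difference 2.40, exact permutation p = 0.0238, adjusted p = 0.0423), with CD95-Ab mouse 5 inside the saline range. The ratio of Orm2 to Orm1 was 0.0159 to 0.1247 after saline and 0.110 to 0.244 after CD95-Ab (log2 difference 2.15, exact permutation p = 0.0317, adjusted p = 0.0423), and saline mouse 2 lay within the CD95-Ab range. For Apcs and Crp the ratio was 0.186 to 0.734 after saline and 0.454 to 0.960 after CD95-Ab, a log2 difference of 0.76 that did not pass the test (exact permutation p = 0.0952, adjusted p = 0.0952). Without saline mouse 2 that difference was 0.997 (exact permutation test, adjusted p = 0.0476). With 1 mouse left out the Saa2 to Saa1 difference ranged from 1.30 to 1.58, and it passed in 2 of 10 such comparisons (adjusted exact permutation p from 0.0317 to 0.0635). Its groups never overlapped, so each time it was at the smallest exact permutation p for 4 mice against 5, 0.0159. A ratio alone at that p adjusts to 0.0635, so the calls lost for Saa2 to Saa1 were set by group size and the other ratios. Saa3 to Saa1 passed in 2 of 10 and Orm2 to Orm1 in 1 of 10 (adjusted exact permutation p from 0.0317 to 0.0847 for each). The plot of ratios by mouse shows the 4 pairs.

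**Figure D4:**
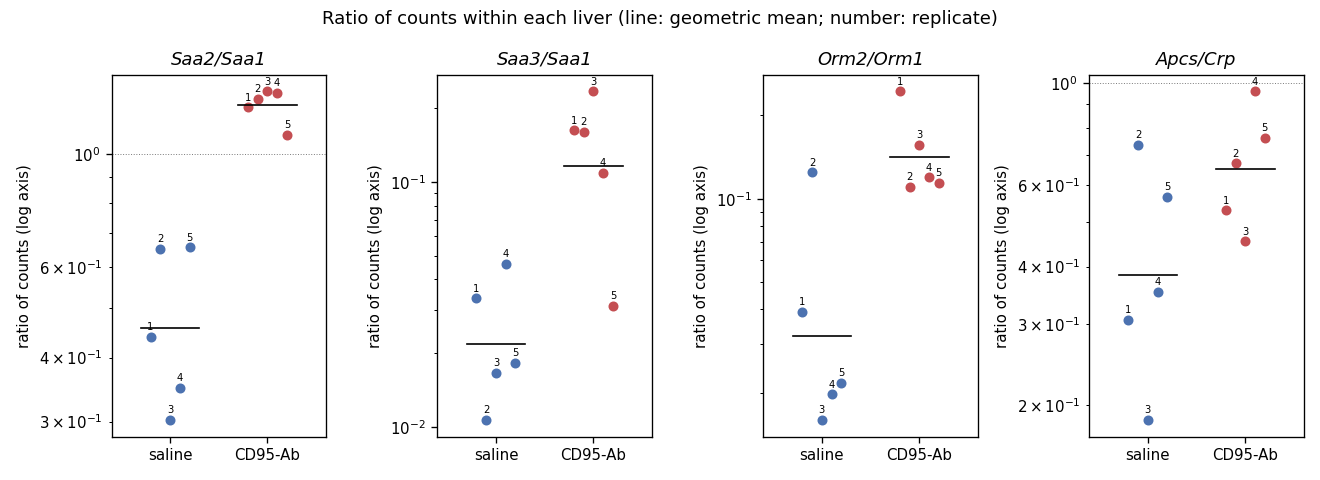
Each panel plots the ratio of counts of 2 related genes within each mouse on a log axis, for 5 saline mice (blue) and 5 CD95-Ab mice (red), with a black line at the geometric mean and a dotted line at 1 where shown. The Saa2 to Saa1 ratio is at most 0.657 after saline and at least 1.09 after CD95-Ab, and the other 3 ratios overlap between groups.

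Levels of different genes were compared on the FPKM scale, which is per length. After saline the order was Orm1 (1078 ± 256 FPKM, SD, n = 5), Itih4 (1067 ± 555), Saa1 (895 ± 1213), Saa2 (530.3 ± 812), Serpina3n (266 ± 52.1), Crp (211 ± 56.1), Apcs (154 ± 90.1), Lbp (58.6 ± 23.8), Orm2 (55.2 ± 71.5) and Saa3 (16.6 ± 13.4). Each pair of neighbours in that order overlapped between mice. Saline mouse 2 carried the serum amyloid A values, since without it Saa1 was at 358 ± 195 FPKM (SD, n = 4) and Saa2 at 170.4 ± 127 FPKM (SD, n = 4), and Saa2 then stood below Serpina3n and Crp. Without that mouse Orm2 was at 23.4 ± 8.63 FPKM (SD, n = 4). Orm1 ranked 76 of all genes by mean FPKM and Saa3 ranked 2750.

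After CD95-Ab the serum amyloid A genes led the order, with Saa2 at 10119 ± 2111 FPKM (SD, n = 5) and Saa1 at 8218 ± 1812, ranks 13 and 20 of all genes. They were followed by Orm1 (2936 ± 487), Itih4 (1632 ± 499.9), Saa3 (1312 ± 723), Serpina3n (969 ± 501), Apcs (611 ± 130.0), Crp (534 ± 142), Orm2 (448 ± 234) and Lbp (179 ± 40.5). Only the steps from Saa1 to Orm1, from Orm1 to Itih4 and from Orm2 to Lbp separated all mice. Saa1 and Saa2 together made up 12.0% ± 10.2 (SD, n = 5) of the counts of the 10 genes after saline and 49.8% ± 6.02 (SD, n = 5) after CD95-Ab. Their share of all counts was 0.0781% ± 0.111 and 1.01% ± 0.212 (SD, n = 5 each). Without saline mouse 2 the saline values were 7.76% ± 4.75 of the counts of the 10 genes and 0.0290% ± 0.0172 of all counts (SD, n = 4).

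The 10 genes did not vary as a block among mice of a group. Saline mouse 2 had the highest saline value for 7 genes (Saa1, Saa2, Saa3, Orm2, Apcs, Itih4 and Lbp), and not for Orm1, Crp or Serpina3n. In that mouse haptoglobin (Hp) was also highest of the saline mice, at 7080.4 CPM against 2951 to 4497, and so was Socs3, a feedback inhibitor of cytokine signaling, at 26.6 against 6.89 to 20.2 CPM. Il1b was highest there too, at 2.76 CPM against 1.07 to 2.00, whereas Tnf, at 0.119 CPM, was not. Il6 in that mouse, at 0.0296 CPM or 1 count, and its Cebpd, at 1.93 CPM, were not raised. In the treated group CD95-Ab mouse 4 was lowest for Crp, Serpina3n, Itih4 and Lbp. The same mouse was highest for Il6 (2.14 CPM, with 1.99 CPM in CD95-Ab mouse 3), Il1b (44.8 CPM), Tnf (7.75 CPM) and Socs3 (298 CPM). It was the lowest treated mouse for Il6ra (8.60 CPM against 25.3 to 33.2) and Stat3 (186 CPM against 207 to 276). The longest coding transcripts of the 4 acute phase genes lowest in CD95-Ab mouse 4 have 1695 to 3531 bases. Saa1, Saa2, Orm1, Orm2 and Apcs, at 609 to 971 bases, were not lowest in that mouse, nor was Saa3. The longest coding transcript of Saa3 has 2200 bases, but its counts and FPKM implied only 467 to 478 bases in every mouse. Saline mouse 5 was lowest of its group for Crp, Itih4 and Lbp, though not for Serpina3n. Whether transcript length or a trait of these libraries underlies the low values was not tested.

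After the group means were subtracted, the 45 pairs of acute phase genes had Pearson correlations over the 10 mice from -0.44 for Orm1 and Crp to 0.99 for Saa1 and Saa2, with a median of 0.48 and 37 above 0. These are descriptions, since all values of a mouse share its library and scaling and saline mouse 2 weighs on several of them. Among 10261 other genes, the closest to Saa1 by the same measure (10 mice) were Tspan15 (r = 0.95), Hp (0.94) and Grk2 (0.92). By ranks (Spearman) these were at 0.78, 0.81 and 0.49. For each acute phase gene only the 3 highest of the 10261 were picked, a choice that by itself favours high r. Those closest to Saa3 were Cxcl9 (0.93), H2-D1 (0.93) and Psmb10 (0.92), and to Orm1 they were Isyna1 (0.94), ENSMUSG00000082209 (0.88) and Atf3 (0.88). Usp19 (0.99), Nploc4 (0.99) and Atp6ap2 (0.98) were closest to Crp, and Gcc1 (0.95), Tes (0.94) and Hsd17b13 (0.93) to Lbp.

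Other positive acute phase genes rose as well. Of 24 tested, 15 rose and 0 fell by the edgeR test, with a median log2 fold change of 0.98, although 3 were lower at an unadjusted p under 0.05 and 3 fell with DESeq2, in both cases Mbl2, Serpina1a and Serpina1b (edgeR log2 fold changes -0.31, -0.36 and -0.41). The largest values were for A2m, a broad protease inhibitor, with 6.13 ± 0.93, Lcn2, which binds bacterial siderophores, with 5.90 ± 0.56, and Il1rn, the interleukin 1 receptor antagonist, with 5.89 ± 0.42 (SE, n = 5 mice per group). A2m spread widely, at 0.111 to 0.338 CPM after saline and 2.18 to 47.1 CPM after CD95-Ab. Lcn2 is also made by neutrophils, whose markers rose as given above, and their part in it was not tested. Serping1 at -0.02 and Hamp2 at -0.09 had the smallest changes and did not pass the test. Among genes that act with Lbp, the lipopolysaccharide receptor Cd14 rose by 4.14 ± 0.36 and Tlr4 by 1.87 ± 0.26 (SE, edgeR FDR = 4.08e-06 and 0.000129).

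Of 16 negative acute phase genes, proteins whose production falls in inflammation, 7 fell, 2 rose and 7 did not pass the test, with a median log2 fold change of -0.40. Albumin (Alb) fell by 1.03 ± 0.25 and the corticosteroid-binding globulin Serpina6 by 1.28 ± 0.25, whereas the thyroxine-binding globulin Serpina7 rose by 2.68 ± 0.33 (log2, SE, edgeR FDR = 0.00529, 0.00132 and 5.45e-05). The other gene of the list that rose was the urinary protein Mup20, by 0.86 ± 0.22 (log2, SE, edgeR FDR = 0.00789). Trf at 0.02 and Apoa4 at -0.13 did not pass. With totals replaced by the sum of hepatocyte markers its median was 0.36 with 4 genes higher and 0 lower, while the median of all tested genes moved to 0.78. That scaling is no independent check of this list, because 3 of its genes (Alb, Ttr and Apoa1) are also hepatocyte markers and made up 55.2% to 77.2% of the marker sum. Relative to that shift the list stayed at -0.43 and the 10 acute phase genes at 1.96.

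The cytokines that induce these proteins rose from very low levels. Of 12 listed, 9 were tested, 7 rose and 1 fell. Il6 was at 0.0706, 0.0296, 0, 0.115 and 0.204 CPM after saline, or 0 to 11 counts, and at 0.481, 1.21, 1.99, 2.14 and 0.753 CPM after CD95-Ab, or 15 to 53 counts. The groups did not overlap, and the log2 fold change was 3.80 ± 0.63 (SE, edgeR FDR = 0.000447). Il1b rose by 3.78 ± 0.41 (SE, edgeR FDR = 2.36e-05), from 1.07 to 2.76 CPM to 13.7 to 44.8 CPM, and Tnf by 5.58 ± 0.56 (SE, edgeR FDR = 1.29e-05). Lif and Osm, interleukin 6 family cytokines, had 0 to 2 counts in each saline mouse and 219 to 513 and 56 to 179 counts after CD95-Ab, and their fitted log2 fold changes of 9.23 and 6.55 depend on how counts near 0 are handled. Ctf1, another cytokine of that family, was lower by a log2 change of -1.19 ± 0.25 (SE, edgeR FDR = 0.00221), and Cntf at -0.32 did not pass.

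Receptors and transcription factors of the pathway followed in number. Of 15 receptor genes 10 rose and 1 fell, led by Il1r2 (6.19 ± 0.60), Tlr2 (5.73 ± 0.40) and the oncostatin M receptor Osmr (2.69 ± 0.21, log2, SE, n = 5 mice per group). Il1rap, the shared subunit of interleukin 1 family receptors, was the one that fell (log2 change -0.49 ± 0.11, SE, edgeR FDR = 0.00393). The receptor subunit Il6ra at -0.34 and Il11ra1 at -0.22 did not pass the test. Of 23 transcription factors and feedback inhibitors 15 rose and 3 fell, among the latter Cebpa (log2 change -1.63 ± 0.15) and Pias3 (-1.06 ± 0.21). Socs1 (4.95 ± 0.53), Relb (3.84 ± 0.28) and Socs3 (3.56 ± 0.43) had the largest values, and Stat3, which transmits interleukin 6 signals, rose by 0.97 ± 0.13 (edgeR FDR = 0.000103). Cebpb rose by 1.27 ± 0.31 and Cebpd by 2.27 ± 0.36 (edgeR FDR = 0.00537 and 0.000355), while Tyk2 at 0.02 and Nr3c1, the glucocorticoid receptor, at -0.10 did not pass. The plot of fold changes by gene list sets these groups beside the 10 acute phase genes.

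**Figure D5:**
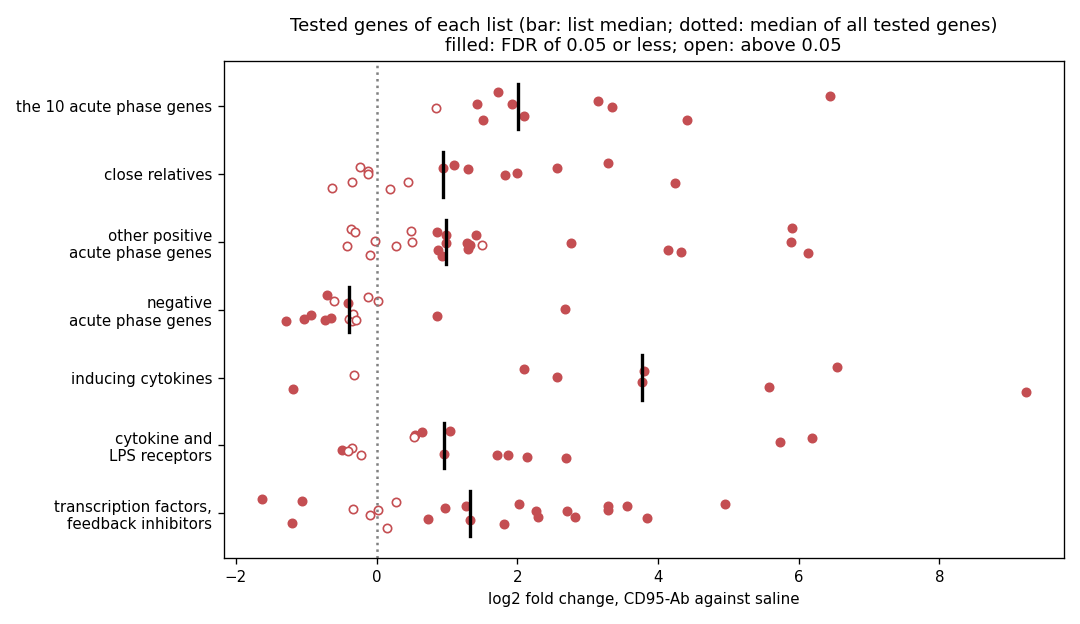
Points give the log2 fold change of CD95-Ab against saline (5 mice per group) for the tested genes of 7 lists, filled where the FDR was 0.05 or less, with a black bar at the list median and a dotted line at the median of all tested genes (0.01). The medians are 2.01 for the 10 acute phase genes, 0.98 for other positive acute phase genes, -0.40 for negative ones and 3.78 for the inducing cytokines.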

How the data were processed

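Liver RNA of 5 saline and 5 CD95-Ab mice was analysed, with groups and replicate numbers from the sample labels. The authors assigned read pairs to genes with RSEM 1.2.19 (a version given in the submitters' processing notes) and deposited expected counts. These are whole numbers in the files, so the rounding applied before the fit left them unchanged. The deposited FPKM values are scaled by RSEM for gene length and total, and served for levels between genes and implied lengths. The methods name a human annotation, although the identifiers are mouse Ensembl identifiers. The mouse release and build are not given in the sources used here, and positions are from GENCODE M21 (GRCm38).

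Genes were kept by filterByExpr (minimum count 10), scaled with TMM and tested by quasi-likelihood in edgeR 4.0.16 under R 4.3.3 (no covariates beside group), with Benjamini-Hochberg adjustment (FDR) over 13719 genes and a threshold of 0.05. The SE was derived from the F statistic. Ratios used log2 of counts plus 0.5 and an exact permutation test (scipy 1.17.1). The code was tested on simulated counts. Depth was 25965699 to 62097636 counts. The members, gene lists and tests were chosen with earlier results of these data known. Genes named are the 10 members and, per list, the 3 largest and 2 smallest log2 fold changes in size among tested genes with a mean of at least 10 counts, together with Saa4, Orm3, Il6, Il1b, Stat3, Cebpb, Cebpd, Socs3, Cd14, Tlr4 and Alb. Nearest genes by correlation needed a mean of 100 counts. Itih1, Itih2, Itih3, Hp, Mup20, Il1rap, Cebpa, Pias3, Mbl2, Serpina1a, Serpina1b, Cd163, Mpo, Adipoq, Fgb, C4b and Cfb were named after their values were seen. Alternatives were other scalings, filters, tests (DESeq2 1.42.0, limma 3.58.1), thresholds, a replicate block and each mouse left out.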

Additional observations from a re-analysis of the deposited data

Results flagged for a closer look

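A mouse stood far from the rest of its group in 5 of the 20 groups of values formed by 10 genes and 2 treatments, by the size of its gap to the nearest mouse relative to the range of the group (over 0.71 for 5 mice). Chance alone marks about 1 in 20 groups if values are normally distributed. Saline mouse 2 was far above the other saline mice for Saa1 (1456 CPM), Saa2 (951 CPM), Orm2 (114 CPM) and Apcs (252.4 CPM), and also for the share of all counts taken by the 10 genes, at 0.957% against 0.319% to 0.456% in the other saline mice. These values come from 1 library and are not independent of each other. CD95-Ab mouse 1 was far above the other CD95-Ab mice for Orm2, at 547 CPM against 236 to 301. On the scale of log2 of CPM plus 0.5, a check added after seeing the data, 1 of the 20 groups had such a gap. That group was Orm2 in the CD95-Ab mice (0.711, CD95-Ab mouse 1). The gaps of saline mouse 2 were below the threshold on that scale, at 0.587 for Saa1, 0.471 for Saa2, 0.662 for Orm2 and 0.572 for Apcs. Each of these saline mouse 2 values was below every CD95-Ab mouse.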

How the results depend on the processing

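The 9 members that passed the test kept their direction and call under every scaling, filter, test and block tried, at an FDR of 0.01, and without any single mouse, but not always their size. Saa1 was at 4.11 and Saa2 at 5.57 with limma-voom, and Saa1 at 4.17, Saa2 at 5.62 and Orm2 at 3.78 with the replicate block. Itih4 passed with hepatocyte marker scaling (log2 fold change 1.54, FDR = 0.00118), DESeq2 (0.84, FDR = 0.0317), the edgeR likelihood ratio test (0.85, FDR = 0.0389) and the replicate block (0.86, FDR = 0.0179), and with 1 mouse left out it ranged from 0.69 to 1.16. Requiring a log2 fold change of at least 2 in size left 5 members, all higher, and 1056 of all tested genes, 904 higher and 152 lower. Hepatocyte marker scaling called 8974 genes, 96.1% of them higher against 53.6% with TMM, and all 10 members, and moved the median of all genes by 0.78. That marker sum is mostly Alb, Ttr and Apoa1, which are also on the list of negative acute phase genes. Under it 0 cytokines, 0 receptors and 1 transcription factor were lower, and 4 negative acute phase genes, 4 hepatocyte markers and 9 Kupffer cell markers were called. The cause was not tested. With medians in place of means the log2 ratio differences were 1.55 for Saa2/Saa1, 3.13 for Saa3/Saa1 and 2.46 for Orm2/Orm1, and none passed (adjusted exact permutation p = 0.0952, 0.0952 and 0.119). With 1 mouse left out they ranged from 1.30 to 1.58, 2.14 to 2.87 and 1.90 to 2.64, and Apcs/Crp from 0.50 to 0.997. Of 10 such comparisons 8 lost the call for Saa2/Saa1 and for Saa3/Saa1 and 9 for Orm2/Orm1 (adjusted exact permutation p up to 0.0635, 0.0847 and 0.0847). With 4 mice against 5 the smallest p of this two-sided test is 0.0159, against 0.00794 with all mice. Saa2/Saa1 was at that smallest p in each such comparison, so its lost calls do not show dependence on a single mouse. By FPKM the members took 3.67% in CD95-Ab mice. Same-numbered mice had correlations of deviations from -0.27 to 0.26, so replicate numbers were not taken as pairs, and the block called 5987 genes against 6495, changing no call of a member other than Itih4. At the lowest depth 3 counts are 0.116 CPM, which limits Il6, Tnf, Lif and Osm and not the members.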
